A study of Homo sapiens with 4 samples.

Results

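Genes of the oxygen-sensing pathway built on hypoxia-inducible factor (HIF), and genes known to respond to it, were followed in ovarian cancer stem cells (OCSCs) after treatment with the ERβ agonist LY500307. The set was given as 42 symbols out of the 23228 in the count files. It holds HIF subunits, the enzymes that sense oxygen, and HIF targets outside glycolysis. It was chosen because ADM, STC2 and C4orf47 were lower with LY500307, so the comparison of LY500307 with vehicle is given for these genes as a description and no test of it is drawn on. Of the 42 symbols, 41 were in the files. HILPDA is the newer name of C7orf68, and the files carry the gene under the latter. Expression was high enough to be tested for 39 genes, and EGLN2 and CA9 fell below the filter.

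The OCSCs were sorted from SKOV3, an established human ovarian cancer cell line, for aldehyde dehydrogenase activity (ALDH+ cells). They were grown as spheroids in serum-free medium with insulin, hydrocortisone, EGF and bFGF. The vehicle group (2 samples) received vehicle alone and the LY500307 group (2 samples) received 5 µM LY500307, each for 24 h. No oxygen level is given for either group, and no sample was labelled as hypoxic. The labels name 1 cell line and do not say whether replicates came from separate cultures, so the spread between samples may be technical.

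HIF is a transcription factor made of an oxygen-regulated alpha subunit (HIF1A or EPAS1) and the stable partner ARNT. When oxygen is present, prolyl hydroxylases of the EGLN family mark the alpha subunit for the ubiquitin ligase subunit VHL, which leads to its destruction, and HIF1AN blocks its coactivator contact. When oxygen is low, the alpha subunit escapes, pairs with ARNT and binds a short DNA core near genes for blood vessel growth, acid balance, mitochondrial turnover and matrix crosslinking. Control of the alpha subunits is largely at the protein, which RNA counts do not measure.

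Gene totals ranged from 28841701 to 34943882 reads per sample, and levels are given as CPM, reads scaled to the size of each library by the TMM method. The LY500307 samples differed from each other more than the vehicle samples did, with a chi-square per degree of freedom of 44.9 against 5.27, so each LY500307 sample is also given on its own. Several markers of the labelled line were missing. PAX8, a transcription factor used as an ovarian carcinoma marker, had 0 reads in every sample. KRT7 and KRT19, keratins of ovarian carcinoma, had at most 2 reads in any sample. Of the 11 epithelial and ovarian carcinoma markers, 6 had at most 12 reads in every sample, while EPCAM was between 193.6 and 239.9 CPM. ERBB2, which is amplified in SKOV3 cells, was between 48.7 and 59.4 CPM. COL1A1 and COL1A2, collagens used as fibroblast markers, were between 182.1 and 395.0 CPM, and the summed level of 5 fibroblast markers was 464.1 and 475.0 CPM with vehicle and 546.0 and 652.2 CPM with LY500307. Both collagens were higher with LY500307, while DCN and LUM were lower in both LY500307 samples (log2 fold changes -0.20 and -0.10) and PDGFRB overlapped between the groups. The summed level of 3 endothelial markers was at most 0.371 CPM. Of 3 leukocyte markers, PTPRC, the pan-leukocyte marker, had at most 4 reads in any sample and CD3E at most 2. The third, CD68, was between 11.5 and 17.9 CPM. The part of this marker pattern in the results below was not tested, and the cells are named as the labels name them. In bulk RNA, fewer cells of a type and less RNA per cell cannot be told apart. ESR1 had 0 reads in every sample and ESR2, which encodes ERβ, had between 7 and 12.

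The upstream sequences of 4 of the 5 genes that were lowest relative to vehicle are shown, with the short core that HIF binds marked. C7orf68, the remaining gene, had no promoter in the RefSeq table used, so it was not searched. The core was searched as ACGTG or GCGTG on both strands, in a window from 250 bases before to 50 bases after the start of transcription given by RefSeq (GRCh38.p14). The printed stretches were placed by exact match on GRCh37, the build of hg19, and each was found at 1 position. Each is written 5′ to 3′ on the strand of its gene with the cores in capitals, so that CACGT and CACGC are cores on the opposite strand.
ADM (adrenomedullin), chr11:10326370-10326619, plus strand: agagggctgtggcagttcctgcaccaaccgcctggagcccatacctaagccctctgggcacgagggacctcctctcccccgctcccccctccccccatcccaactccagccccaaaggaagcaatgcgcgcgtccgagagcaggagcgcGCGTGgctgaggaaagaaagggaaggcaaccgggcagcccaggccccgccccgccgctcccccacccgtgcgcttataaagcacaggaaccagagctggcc
STC2 (stanniocalcin 2), chr5:172755421-172755667, minus strand: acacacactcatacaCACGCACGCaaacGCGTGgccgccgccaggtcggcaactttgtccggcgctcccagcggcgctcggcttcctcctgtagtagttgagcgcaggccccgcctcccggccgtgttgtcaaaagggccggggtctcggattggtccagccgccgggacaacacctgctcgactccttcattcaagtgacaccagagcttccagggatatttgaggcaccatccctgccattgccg
C4orf47, chr4:186347158-186347407, plus strand: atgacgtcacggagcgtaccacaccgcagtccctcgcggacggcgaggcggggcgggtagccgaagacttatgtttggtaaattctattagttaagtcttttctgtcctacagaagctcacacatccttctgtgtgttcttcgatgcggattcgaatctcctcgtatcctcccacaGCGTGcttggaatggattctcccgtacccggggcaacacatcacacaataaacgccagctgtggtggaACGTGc
INSIG2 (insulin-induced gene 2), chr2:118845797-118846046, plus strand: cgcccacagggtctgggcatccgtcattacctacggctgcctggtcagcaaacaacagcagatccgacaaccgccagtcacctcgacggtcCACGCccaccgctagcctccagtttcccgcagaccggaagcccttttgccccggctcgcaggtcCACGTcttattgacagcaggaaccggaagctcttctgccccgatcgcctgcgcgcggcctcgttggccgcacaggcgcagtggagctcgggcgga

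The C4orf47 stretch carried an ACGTG core that began 6 bases before the start of transcription, and a GCGTG core 74 bases before it. INSIG2 held a core of each kind, 95 and 159 bases before the start, both on the opposite strand. STC2 held 3 cores between 222 and 235 bases before the start, all of the GCGTG kind, and ADM held 1, 101 bases before it. Among the 33 promoters of the set found in the RefSeq table, 20 held ACGTG (60.6%), against 26.3% of 10862 promoters of genes tested and 21.4% of all 35116 promoters. With GCGTG counted too, 27 of the 33 held a core (81.8%), against 62.9% of promoters of genes tested. The palindrome CACGTG, which holds ACGTG on both strands and is also the site of basic helix-loop-helix factors such as BHLHE40, was in 10 of them (30.3%), against 9.91% of promoters of genes tested. The median GC content of the windows was 66.7% in the set and 65.3% in genes tested, and these shares were not adjusted for it. All 4 promoters shown held a core of either kind, as did 21 of the 27 promoters of genes that did not meet the criteria (77.8%). ACGTG was in 2 of the 4 and in 16 of the 27. These matches describe letters in a window, not bound sites. Since the set was assembled from HIF pathway genes and known HIF targets, the shares describe that list and not the response to LY500307.

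**Figure D1:**
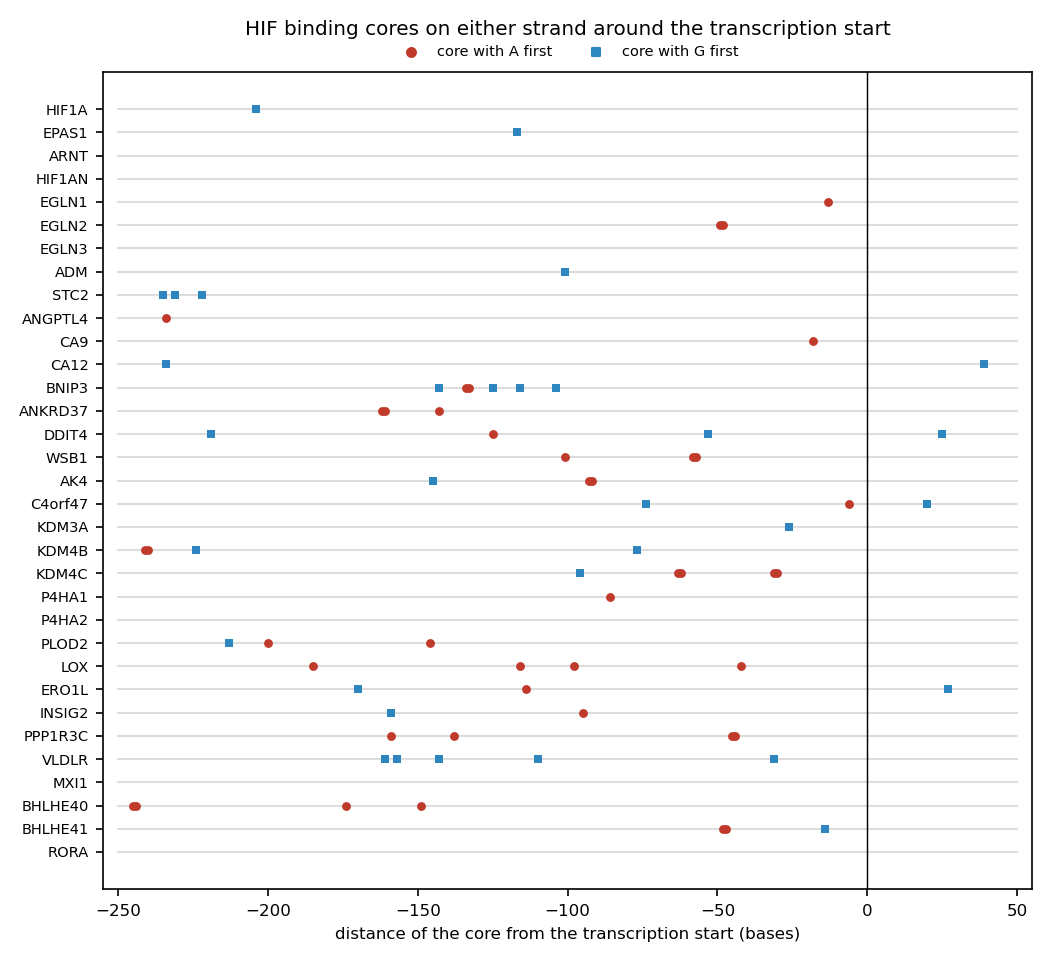
Position of the ACGTG core (red circles) and the GCGTG core (blue squares), on either strand, in 33 promoters. The x axis is the distance in bases from the RefSeq start of transcription (black line), over a window from 250 bases before to 50 after it. In ADM the single core lies 101 bases before the start, and ARNT, HIF1AN, EGLN3, P4HA2, MXI1 and RORA have none.

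In the vehicle samples the RNA of HIF1A and ARNT was far more abundant than that of EPAS1. Levels of different genes are compared as CPM per kilobase of exon, taken over all annotated exons. HIF1A was at 54.4 and 55.4 CPM per kb in the vehicle samples, ARNT at 32.3 and 33.8, and EPAS1 at 0.165 and 0.116. EPAS1 had the lowest mean of the 39 genes, though its values overlapped those of VLDLR, next in the order, at 0.194 and 0.119. The highest was DDIT4, an inhibitor of the growth kinase mTORC1, at 104.6 and 99.4 CPM per kb. BHLHE40, a transcriptional repressor, BNIP3L, a mitophagy receptor, CA12, a membrane carbonic anhydrase, and VHL followed HIF1A in the order, with means from 34.5 to 39.2 CPM per kb. Of these neighbours, BNIP3L and BHLHE40 did not differ beyond the spread between the vehicle samples, with BHLHE40 at 38.8 and 39.5 CPM per kb and BNIP3L at 37.8 and 39.0. EGLN1, the main prolyl hydroxylase, was at 30.8 and 30.6 CPM per kb, and EGLN3, another hydroxylase of the family, was at 0.326 and 0.134. ADM, STC2 and C4orf47 were in the middle and lower part of the order, at mean levels of 5.92, 10.6 and 2.47 CPM per kb.

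**Figure D2:**
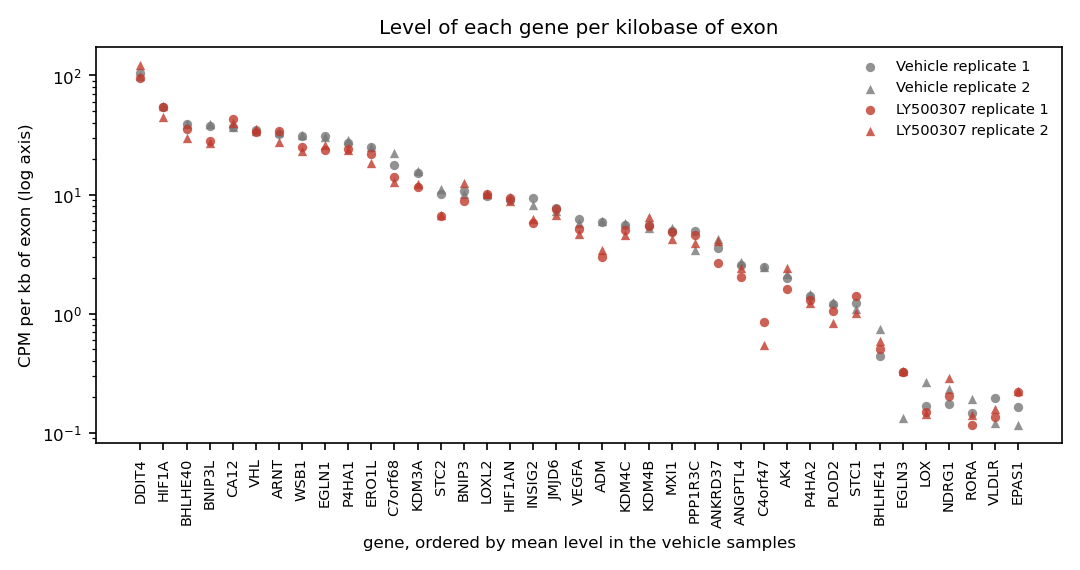
Level of the 39 genes tested in CPM per kilobase of exon (log axis), ordered by the mean of the vehicle samples. Gray symbols are the vehicle samples and red symbols the LY500307 samples, with circles for replicate 1 and triangles for replicate 2. Levels run from a vehicle mean of 102.0 for DDIT4 to 0.140 for EPAS1, and in C4orf47 both LY500307 samples lie far below the vehicle samples.

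Across the set, 5 of 39 genes met the criteria of the study's methods, applied here to edgeR's quasi-likelihood test (a log2 fold change beyond 0.5 in either direction with unadjusted p under 0.05). All 5 were lower with LY500307 and 0 were higher. Of all 14473 genes tested, 4.62% met them, 1.86% as lower and 2.76% as higher. The 5 genes were C4orf47, ADM, STC2, C7orf68 and INSIG2. Since ADM, STC2 and C4orf47 chose the set, these counts describe it and nothing is read from them. The groups did not overlap in 23 genes, against 48.6% of all genes tested, with the LY500307 samples lower in 20 and higher in 3, against 24.4% and 24.2%. By unadjusted p alone, 13 genes were lower and 0 higher, against 5.5% and 6.09% of all genes tested. The median log2 fold change was -0.16 over the 39 genes and -0.15 without ADM, STC2 and C4orf47, while it was 0.00 over all genes tested, with 28 of the 39 values negative. After adjustment over all 14473 genes, edgeR left 0 with p under 0.05, the smallest being 0.422, while 1678 were under it before adjustment. DESeq2 gave an adjusted p to 11386 genes, 31 of them in the set, and left 20, of which ADM and STC2 are in the set. C4orf47, with an unadjusted DESeq2 p of 3.0e-05, was given no adjusted p.

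**Figure D3:**
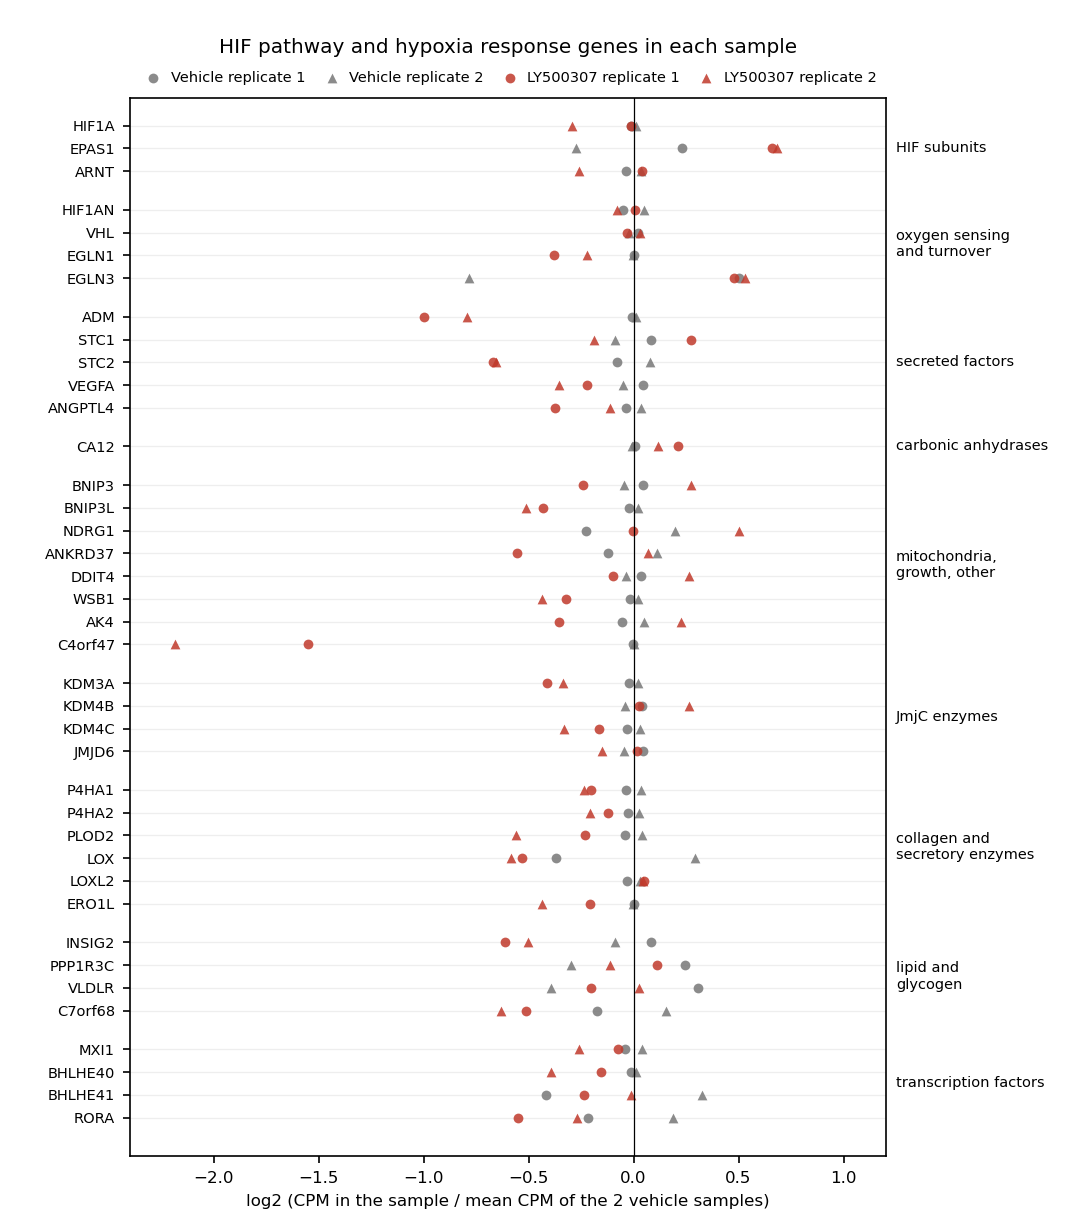
Level of each of the 39 genes in each sample, as log2 of its CPM over the mean CPM of the vehicle samples, grouped by role. Gray symbols are vehicle samples, red symbols LY500307 samples, circles replicate 1 and triangles replicate 2. The LY500307 samples of C4orf47, ADM and STC2 lie furthest to the left, and those of EPAS1 furthest to the right.

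Among the HIF subunits, HIF1A was at 280.1 and 285.3 CPM in the vehicle samples and at 280.6 and 230.5 CPM in the LY500307 samples. LY500307 replicate 1 lay within the vehicle values and replicate 2 below them, so the groups overlapped (log2 fold change -0.15, standard error 0.12). ARNT behaved alike, at 208.0 and 218.0 CPM with vehicle and 218.6 and 178.0 CPM with LY500307, where replicate 2 was again the low one. EPAS1, the alpha subunit that is most used in endothelial and kidney cells, rested on 36 and 24 reads with vehicle and 56 and 53 reads with LY500307. Its groups did not overlap, and the log2 fold change was 0.66 with a standard error of 0.37, which did not meet the criteria.

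Of the genes that sense oxygen and turn HIF over, EGLN1 was at 165.5 and 164.7 CPM with vehicle and at 127.0 and 141.4 CPM with LY500307. Neither LY500307 sample reached the vehicle values, and the log2 fold change of -0.30 (standard error 0.10) was too small for the criteria. VHL, the substrate receptor of the ligase, was at 174.9 and 169.8 CPM with vehicle and 168.8 and 176.3 CPM with LY500307, and the groups overlapped. HIF1AN, the asparaginyl hydroxylase, was at 124.1 and 133.0 CPM with vehicle and 129.3 and 121.9 CPM with LY500307, also with overlap. EGLN3 was uneven within the vehicle group, with 72 and 28 reads, and had 82 and 79 reads with LY500307. Its log2 fold change of 0.50 was 1.28 without vehicle replicate 1 and 0.00 without vehicle replicate 2, so it is set by those samples. EGLN2 had 0 and 7 reads with vehicle and 0 and 2 reads with LY500307. Of its 6574 exonic bases, 2012 are shared in GENCODE with the readthrough gene RAB4B-EGLN2 on the same strand, which had 0 reads in every sample. HTSeq sets aside reads that fall on more than 1 gene. Whether EGLN2 lost reads this way was not tested, and its level is not read from these counts.

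Of the 5 secreted factors, ADM and STC2 met the criteria. ADM, a vasodilator peptide hormone on chromosome 11 of GRCh37 from 10326620 to 10328944, was at 13.7 and 13.9 CPM with vehicle and at 6.89 and 7.95 CPM with LY500307. Both LY500307 samples lay far below both vehicle samples, at 13.8 ± 0.129 CPM with vehicle against 7.42 ± 0.753 CPM with LY500307 (SD, n = 2 each). That is 53.9% of the vehicle level, or -0.89 on the log2 scale with a standard error of 0.17. STC2, a glycoprotein hormone that inhibits the protease PAPPA, lies on chromosome 5 from 172741726 to 172755450 and was at 50.8 and 56.6 CPM with vehicle and at 33.7 and 34.1 CPM with LY500307. The LY500307 samples were nearly equal, and the log2 fold change was -0.66 (standard error 0.12). Its paralog STC1 did not separate, at 5.07 and 4.50 CPM with vehicle and 5.79 and 4.21 CPM with LY500307. VEGFA, the main growth factor for blood vessels, was at 89.2 and 83.5 CPM with vehicle and at 73.9 and 67.4 CPM with LY500307. Both LY500307 samples were lower, with a log2 fold change of -0.29 (standard error 0.11). ANGPTL4, an inhibitor of lipoprotein lipase, was lower in both as well, at -0.24 on the log2 scale (standard error 0.20).

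Carbonic anhydrases help cells export acid. CA9, the usual marker of HIF activity in tumors, had 6 and 6 reads with vehicle and 0 and 2 reads with LY500307, too few to test, and 571 of its 1598 exonic bases are shared with C9orf100 on the opposite strand. CA12 was at 259.4 and 256.9 CPM with vehicle and at 298.9 and 279.4 CPM with LY500307, 1 of the 3 genes with both LY500307 samples above both vehicle samples (log2 fold change 0.16, standard error 0.10).

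C4orf47 had the largest difference of the set. It lies on chromosome 4 of GRCh37 from 186347403 to 186370980 and its product is little studied. Vehicle libraries gave it 101 and 96 reads and LY500307 libraries 40 and 24, or 3.37 and 3.38 CPM against 1.15 and 0.743 CPM. The vehicle samples were nearly equal and both LY500307 samples were well below them, at 28.3% of the vehicle level (log2 fold change -1.82, standard error 0.33). Set against the vehicle pair singly, LY500307 replicate 1 was at -1.54 and replicate 2 at -2.18 on the log2 scale. ANKRD37, an ankyrin repeat gene induced by HIF, ends 25620 bases upstream of C4orf47 on the same strand. It was at 8.04 and 9.46 CPM with vehicle and 5.96 and 9.19 CPM with LY500307, with overlap between the groups. Of its 2253 exonic bases, 909 are shared with UFSP2 on the opposite strand.

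The mitochondrial genes parted ways. BNIP3L was at 156.8 and 161.7 CPM with vehicle and at 118.0 and 111.5 CPM with LY500307. Both LY500307 samples were lower, and its log2 fold change of -0.47 (standard error 0.10) lay just outside the limit of 0.5, whereas INSIG2 and C7orf68 lay just inside it. BNIP3, the related mitophagy receptor, was at 43.3 and 40.6 CPM with vehicle, and at 35.5 CPM in LY500307 replicate 1 and 50.7 CPM in replicate 2. The same order held for AK4, a mitochondrial adenylate kinase, at 12.2 CPM in LY500307 replicate 1 and 18.3 CPM in replicate 2, around vehicle values of 15.0 and 16.2 CPM. DDIT4 had 196.4 and 252.0 CPM in the LY500307 samples, on either side of its vehicle values of 215.3 and 204.5 CPM. WSB1, a ubiquitin ligase subunit, was at 265.4 and 272.6 CPM with vehicle and 214.9 and 198.9 CPM with LY500307, lower in both samples (log2 fold change -0.38, standard error 0.10). NDRG1, a stress-induced growth regulator, overlapped between the groups, at 0.27 on the log2 scale (standard error 0.31).

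JmjC enzymes use oxygen as EGLN enzymes do. KDM3A, a demethylase of lysine 9 of histone H3, was at 201.5 and 208.0 CPM with vehicle and at 154.0 and 162.3 CPM with LY500307. Both LY500307 samples were below the vehicle samples (log2 fold change -0.37, standard error 0.10). KDM4C was also lower in both, with a log2 fold change of -0.25 (standard error 0.11). KDM4B and JMJD6 overlapped between the groups, with log2 fold changes of 0.15 and -0.06.

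The collagen and secretory enzymes did not overlap between the groups in any of the 6 genes, with 5 lower and 1 higher (24.4% and 24.2% of all genes tested), and 0 of the 6 met the criteria. ERO1L, which passes oxidizing power to new disulfide bonds in the endoplasmic reticulum, was at 190.1 and 189.0 CPM with vehicle and 164.0 and 140.2 CPM with LY500307 (log2 fold change -0.32, standard error 0.11). PLOD2, a collagen lysyl hydroxylase, was at 17.3 and 18.3 CPM with vehicle and 15.2 and 12.1 CPM with LY500307 (log2 fold change -0.39, standard error 0.16). The prolyl hydroxylase subunits P4HA1 and P4HA2 had log2 fold changes of -0.22 and -0.16. LOX, a lysyl oxidase that crosslinks collagen, had a log2 fold change of -0.55 with a standard error of 0.43 and rested on 26 to 42 reads per sample. Its relative LOXL2 was at 57.7 and 60.1 CPM with vehicle and 61.0 and 60.8 CPM with LY500307, above both vehicle samples by a margin smaller than the gap between them, and its log2 fold change of 0.05 became -0.03 with GC correction.

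In lipid and glycogen metabolism 2 of the 4 genes tested met the criteria, against 4.62% of all genes tested, and both missed them in some alternatives. INSIG2, which holds the SREBP escort protein in the endoplasmic reticulum and so restrains sterol synthesis, was at 36.7 and 32.5 CPM with vehicle and 22.6 and 24.4 CPM with LY500307. Both LY500307 samples were lower, with a log2 fold change of -0.56 (standard error 0.13). C7orf68 encodes HILPDA, an inhibitor of lipid droplet breakdown, and lies on chromosome 7 from 128095903 to 128098472. It was at 36.5 and 45.9 CPM with vehicle and 28.9 and 26.6 CPM with LY500307, lower in both samples although the vehicle samples were apart (log2 fold change -0.57, standard error 0.15). PPP1R3C, a glycogen-targeting subunit of protein phosphatase, had a log2 fold change of 0.00 and VLDLR, a lipoprotein receptor, of -0.09, both with overlap between the groups.

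Among the transcription factors, BHLHE40 was at 136.6 and 138.8 CPM with vehicle and at 123.8 and 104.9 CPM with LY500307. Both LY500307 samples were lower (log2 fold change -0.27, standard error 0.11). MXI1, an antagonist of MYC, and RORA, a nuclear receptor of the circadian clock, were also lower in both, with log2 fold changes of -0.16 and -0.40, the latter on 68 to 93 reads per sample. BHLHE41 overlapped between the groups.

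The LY500307 samples were then compared with the vehicle samples separately. Over the 39 genes the median was -0.20 for LY500307 replicate 1 and -0.22 for replicate 2 on the log2 scale. ADM, STC2, C4orf47, INSIG2 and C7orf68 were at or below -0.50 in each. ANKRD37 was at -0.55 in replicate 1 and 0.07 in replicate 2, AK4 at -0.36 and 0.23, and BNIP3 at -0.24 and 0.28. HIF1A was at -0.01 and -0.29. Across 13786 genes tested with a match in the annotation, the log2 fold change was higher in genes of higher exonic GC content (Spearman rho 0.33) and lower in longer genes (Spearman rho -0.20), a description of genes that share the same 4 libraries. With a correction for GC content, the log2 fold change was -0.98 for ADM, -0.71 for STC2, -1.75 for C4orf47 and -0.62 for C7orf68, while INSIG2, whose exons have a GC content of 37.5%, was at -0.40 and no longer met the criteria.

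**Figure D4:**
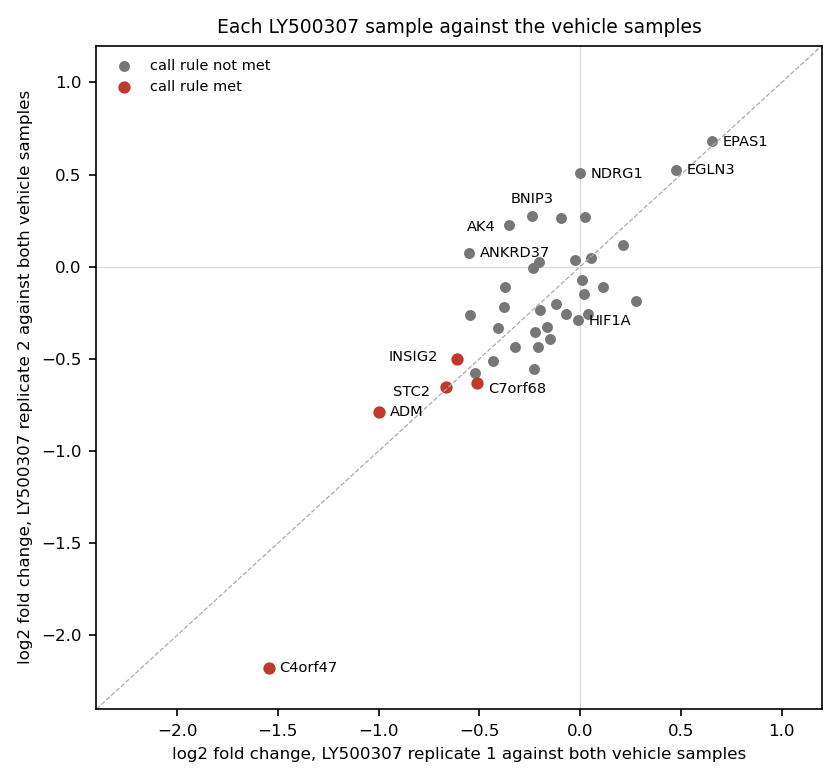
Log2 fold change of each of the 39 genes in LY500307 replicate 1 (x axis) and replicate 2 (y axis), each against the same vehicle samples, with the dashed line marking equal values. Red points are the 5 genes that met the criteria and gray points the others. C4orf47 lies lowest at -1.54 and -2.18, and ANKRD37, AK4 and BNIP3 lie on opposite sides of 0 in the 2 samples.

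Other genes of the pathway were counted from 3 lists. Of 15 further genes of the HIF machinery, 14 were tested, of which 2 rose and 0 fell by the criteria, against 2.76% and 1.86% of all genes tested. RBX1, the RING subunit of the VHL ligase, was at 27.7 and 36.9 CPM with vehicle and 41.3 and 65.8 CPM with LY500307 (log2 fold change 0.73, standard error 0.23). TCEB2, elongin B of the same ligase, was at 69.7 and 75.8 CPM with vehicle and 85.5 and 130.9 CPM with LY500307 (log2 fold change 0.57, standard error 0.18). Both rested mainly on LY500307 replicate 2, without which their log2 fold changes were 0.36 and 0.23 and did not meet the criteria. RBX1 also missed them without vehicle replicate 1 (0.54), and TCEB2 with GC correction (0.49). The median of this list was 0.10. CUL2, the scaffold of the ligase, and EP300, a HIF coactivator, named after their values were seen, had log2 fold changes of -0.02 and -0.12. Of the 14 tested, 6 were higher in both LY500307 samples and 1 lower, against 24.2% and 24.4% of all genes tested. By unadjusted p alone in edgeR's test, 4 were higher and 0 lower, against 6.09% and 5.5%.

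Of 30 further HIF targets, 24 were tested, of which 4 fell and 3 rose, against 1.86% and 2.76% of all genes tested, with a median log2 fold change of -0.02. TGFA, a ligand of the EGF receptor, was at 1.67 and 1.06 CPM with vehicle and 0.663 and 0.526 CPM with LY500307. ANGPT2, a vessel-destabilizing ligand, was at 8.41 and 8.51 CPM and then 6.80 and 4.46 CPM. PPFIA4, a liprin, was at 17.8 and 16.3 CPM and then 10.6 and 12.6 CPM. These and CP, the copper oxidase ceruloplasmin (log2 fold change -0.51), were lower in both LY500307 samples. Each missed the criteria in some alternatives. CP did so in 6, at -0.38 with GC correction and -0.36 without LY500307 replicate 2, and ANGPT2 in 5, at -0.31 without LY500307 replicate 2 and -0.48 with GC correction. TGFA did so in 4, among them DESeq2, and PPFIA4 without LY500307 replicate 1 (-0.43) or vehicle replicate 1 (-0.49). HMOX1, heme oxygenase, which is also a target of NRF2, was at 34.7 and 33.9 CPM and then 44.9 and 61.4 CPM (log2 fold change 0.63, standard error 0.16), and missed the criteria without LY500307 replicate 2 (0.39). MET, the receptor of hepatocyte growth factor, had 4 reads in all with vehicle and 23 with LY500307, a ratio of 5.01 with an exact binomial 95% interval from 1.71 to 19.9 that covers counting error only. It missed the criteria with DESeq2, with no filter on low counts and without any 1 of the samples.

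All 20 glycolytic HIF targets were tested, of which 2 fell and 0 rose, against 1.86% and 2.76% of all genes tested, with a median log2 fold change of -0.15. These were PDK1, which closes the pyruvate dehydrogenase gate (log2 fold change -0.60), and hexokinase HK2 (-0.52). PDK1 missed the criteria narrowly with GC correction, and HK2 missed them with library totals alone (-0.48), without LY500307 replicate 2 (-0.46) and without vehicle replicate 1 (-0.49). PGK1, ENO1 and SLC2A1, classical HIF targets named after their values were seen, had log2 fold changes of -0.05, -0.01 and -0.17 and did not meet the criteria. Of the 20, 9 were lower in both LY500307 samples and 4 higher, against 24.4% and 24.2% of all genes tested. By unadjusted p alone in edgeR's test, 5 were lower and 0 higher, against 5.5% and 6.09%. Besides PDK1 and HK2 these were LDHA (-0.36), PFKFB4 (-0.42) and PFKFB3 (-0.28), also named after their values were seen.

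**Figure D5:**
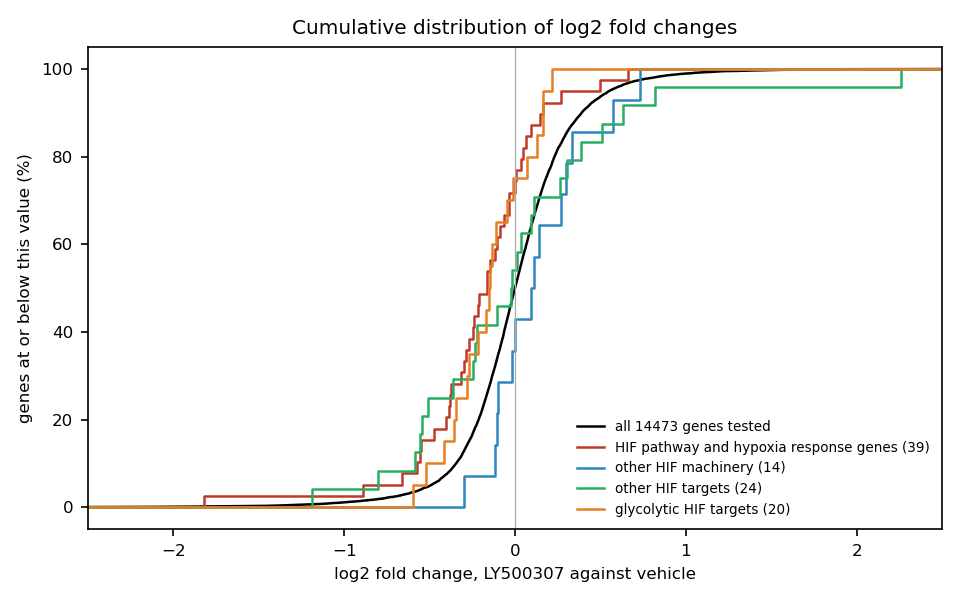
Cumulative share of genes (y axis, %) at or below each log2 fold change of LY500307 against vehicle (x axis) for all 14473 genes tested (black), the 39 HIF pathway and hypoxia response genes (red), and the lists of other HIF machinery (14 tested, blue), other HIF targets (24, green) and glycolytic HIF targets (20, orange). The medians are 0.00, -0.16, 0.10, -0.02 and -0.15.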

How the data were processed

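RNA-seq was analysed for 2 vehicle and 2 LY500307 samples. The authors aligned reads to hg19 with TopHat2 2.0.8b, and used HTSeq to assign them to gene symbols; the deposited values are raw counts, without normalization. The strand setting, HTSeq version and annotation are not given in the sources used here. The methods describe stranded mRNA libraries and the labels total RNA libraries with single-end reads. Tally lines that name no gene were left out. Reads on no gene were between 17.3% and 20.5% of reads tallied as on a gene, on no gene, ambiguous or not uniquely aligned. Those not uniquely aligned were between 32.3% and 33.4% of all tallied reads.

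The test was run with edgeR 4.0.16 in R 4.3.3 (TMM, filterByExpr, quasi-likelihood test, Benjamini-Hochberg adjustment over all 14473 genes tested). The standard error is the absolute log2 fold change over the square root of F. DESeq2 1.42.0, the study's tool, was an alternative, on the same filtered genes. With 2 samples per group an exact two-sided permutation test of 1 gene cannot go below 0.333. Exonic length, GC content and gene positions came from GENCODE on GRCh37, to which 91.8% of 23228 symbols were matched, 2184 by an older symbol. GC content and length were corrected by an offset from a loess fit within each sample, with span 0.3, on log2 CPM with prior count 2. Promoters came from RefSeq (GRCh38.p14). The fits were tested on simulated data.

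The set, the other lists and the naming rule (genes meeting the criteria or not overlapping, the HIF subunits and oxygen sensors) were chosen with earlier results of these data known. STC1, ANKRD37, BNIP3, AK4 and DDIT4 are outside the rule and were described after their values were seen. Of the further HIF targets that met the criteria, 1 is not reported here. Same-numbered samples' deviations had a correlation of -0.10 over all genes tested, and of -0.18 over the 9853 with a mean CPM of 10 or more. Numbers were therefore not taken as pairs. Alternatives were other scalings, filters, DESeq2, a replicate block, GC correction and leaving out each sample. Length correction and a crossed pairing were added after the data were seen.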

Additional observations from a re-analysis of the deposited data

How the results depend on the processing

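The 5 genes of the set that met the criteria were lower in every alternative run, and ADM, STC2 and C4orf47 met the criteria in each. The count was between 4 and 7 across all alternatives. INSIG2 no longer met the criteria with GC correction (-0.40), alone or with the replicate block, or without vehicle replicate 1, and C7orf68 without vehicle replicate 2. BNIP3L (-0.51) and PLOD2 (-0.55) met them without LY500307 replicate 1, ANKRD37 (-0.55) without LY500307 replicate 2, and EGLN3, as higher (1.28), without vehicle replicate 1. The median log2 fold change of the set was -0.14 with GC correction alone, -0.14 when the replicate block was added to it, -0.13 with library totals alone and -0.21 with no filter on low counts, and from -0.24 to -0.18 with each sample left out. The number of genes of the set whose groups did not overlap was between 28 and 35 with a sample left out, where separation is easier by construction. For the other HIF lists, 4 to 11 genes met the criteria with a sample left out, against 11 with all samples, with 4 without vehicle replicate 1 and 4 without LY500307 replicate 2. Over all genes, 669 met them with all samples, and with 1 left out from 352 without LY500307 replicate 2 up to 1987 without LY500307 replicate 1. These fits leave 1 group with a single sample, which is assumed to vary like the other group. The causes of these differences were not tested.

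With the replicate block, 5 genes of the set, 11 of the other HIF lists and 717 of all genes met the criteria, and 1 of all genes had an adjusted p below 0.05. The block changed no call in the set. With the crossed pairing, 5 genes of the set and 781 of all genes met the criteria and 381 had an adjusted p below 0.05. The labels do not give this pairing and it was added after the data were seen, so nothing is read from these counts. Non-overlap was counted on CPM and was not recomputed on values corrected for GC content or length.

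EPAS1, EGLN3, LOX, RORA, VLDLR and BHLHE41, each under 100 reads in every sample, had standard errors from 0.29 to 0.43, against 0.12 for STC2. A difference of the size seen in STC2 could therefore be missed in them.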
